A study of Mus musculus with 2 samples.

Results

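Serpins are the members of a protein family named for serine protease inhibition, and the 78 array probes described here are non-control probes whose gene name in the scanner files starts with Serpin. They stand for 61 gene names among 34960 on the array, and the 78 probes are a share of 55676. The probes were chosen by name alone, but the family was taken up with earlier results of these data known, Serpinf1 among them. The letter after Serpin gives the clade, a branch of the family tree: 35 probes (25 genes) belong to clade a, 31 probes (27 genes) to clade b and 12 probes (9 genes) to clades c to i.

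The samples were regulatory T (Treg) cells of 5-week-old mice labelled Nr4a-TKO, 1 array, and of 5-week-old wild-type mice, 1 array. Treg cells are the CD4 T cells that keep immune responses in check, and the Nr4a genes encode related nuclear receptors. What was altered in each Nr4a gene, in which cells, and how many mice stand behind each sample is not in the labels. The cells were sorted and lysed directly, and their total RNA was labelled with Cy3 for 1-colour Agilent mouse expression arrays.

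An inhibitory serpin offers an exposed reactive loop as bait. When a protease cuts the loop, the serpin snaps into a new fold and traps the protease in a covalent complex, so each molecule is used once. Most clade a serpins are secreted plasma proteins such as alpha-1-antitrypsin. Clade b serpins lack a classical secretion signal and mostly stay inside cells, where several protect lymphocytes and granulocytes from their own granule proteases. Some members inhibit no protease, among them Serpinf1 (pigment epithelium-derived factor), Serpinh1 (HSP47, a collagen chaperone of the endoplasmic reticulum) and Serpinb5 (maspin).

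Values are log2 signals relative to the 75th percentile of each array, and a difference is that of the array labelled Nr4a-TKO less that of wild-type. With 1 array per genotype no difference has a replicate check and none was tested. The number of arrays limits the precision. "Well above background" is the scanner's own call, and a gene takes the values of its brightest probe by mean signal. It was counted as measured where that probe passed the call on both arrays. Genes were counted as past a size of 2-fold, which is no test.

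The targeted genes did not settle the genotype label. Nr4a3 was at -3.93 in the array labelled Nr4a-TKO, against -1.11 in wild-type, whereas Nr4a1 (6.96, against 6.90 in wild-type) and the brighter Nr4a2 probe (0.18, against -1.16 in wild-type) were not lower. Every direction below therefore rests on the label. Foxp3, which defines Treg cells, was at -2.57 in the array labelled Nr4a-TKO, against 1.54 in wild-type, and was well above background on both. Of 6 Treg markers, 3 (Foxp3, Ctla4 and Ikzf2) were past 2-fold in the lower direction, beside 3.06% of all measured genes. Il2ra, Cd4 and Cd3e were lower by less than 2-fold. The brighter Xist probe was at 1.83 in the array labelled Nr4a-TKO, and not well above background in wild-type. Ddx3y of the Y chromosome was at 0.38 in the array labelled Nr4a-TKO, against 2.24 in wild-type, 3.63-fold lower. It was well above background on both arrays. The part of these differences between the samples in the serpin values was not tested, and in a bulk sample fewer cells of a type and less RNA per cell cannot be told apart.

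The probe sequences of the 4 described genes with the widest gaps between the arrays are given first, since each gene's value rests on these 60 bases. They come from the scanner files, are written 5′ to 3′, and have no capitals because no part is singled out. Coordinates are on mm9.
Serpinf1, chr11:75223582-75223641, minus strand: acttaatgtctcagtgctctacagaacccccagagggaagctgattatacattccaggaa
Serpinf1, chr11:75229163-75229222, minus strand: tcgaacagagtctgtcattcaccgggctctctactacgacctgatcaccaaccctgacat
Serpinb5, chr1:108778585-108778644, plus strand: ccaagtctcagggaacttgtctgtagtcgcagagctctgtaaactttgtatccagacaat
Serpina3g, chr12:105480045-105480104, plus strand: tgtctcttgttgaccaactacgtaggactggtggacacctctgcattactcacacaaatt
Serpine2, chr1:79793476-79796093, minus strand: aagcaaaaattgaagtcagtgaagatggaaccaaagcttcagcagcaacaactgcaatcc
The files place these probes in the named genes but do not say whether they lie in coding sequence or a UTR. The Serpine2 probe covers 2618 bases of the genome with 60 bases of its own, so it bridges parts that lie apart in the genome. Of the 78 serpin probes, 5 span more genome than their own length in this way.

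Of the 78 serpin probes, 34 (43.6%) were well above background on the array labelled Nr4a-TKO and 33 (42.3%) on the wild-type array. Over all probes these shares were 63.9% on the array labelled Nr4a-TKO and 66.0% on the wild-type array. Thus 31 serpin probes passed on both arrays, 3 only on the array labelled Nr4a-TKO, 2 only on the wild-type array and 42 on neither. In clade a, 14 of 35 probes (40.0%) passed on each array. In clade b, 12 of 31 (38.7%) passed on the array labelled Nr4a-TKO and 11 (35.5%) on the wild-type array. In clades c to i, 8 of 12 (66.7%) passed on each array.

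**Figure D1:**
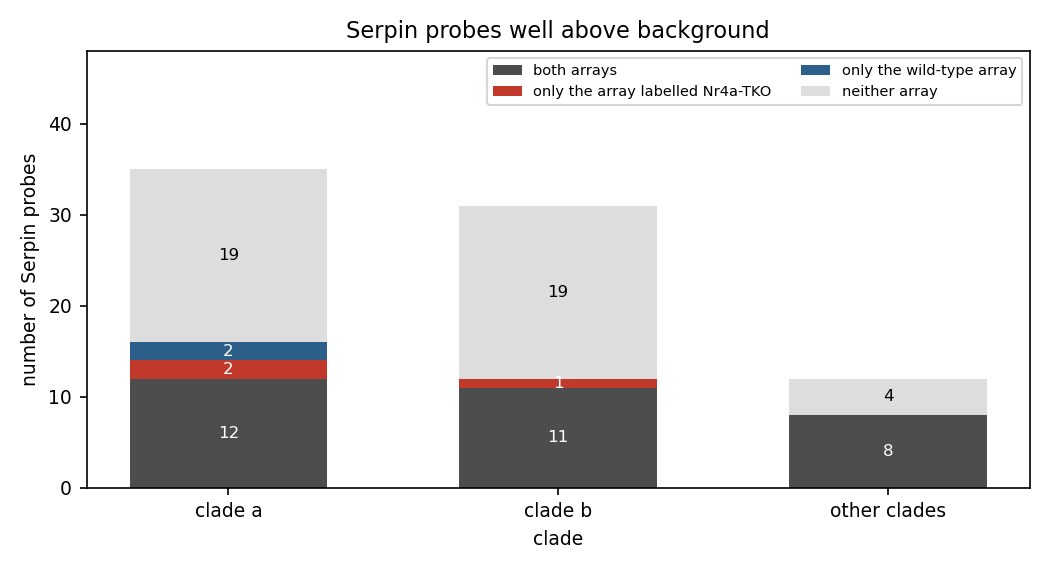
Number of serpin probes (vertical axis) by clade, divided into probes well above background on both arrays, on 1 array only or on neither. Clades a and b each had 19 probes on neither array, and clades c to i had 4.

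By gene, 26 of 61 were measured on both arrays, 10 in clade a, 10 in clade b and 6 in the other clades. A further 32 genes were well above background on neither array. Their brightest probes had processed signals, in scanner units, of 5.89 to 31.2 on the array labelled Nr4a-TKO and 5.74 to 30.6 on the wild-type array. They included Serpina3n, the thyroxine carrier Serpina7, the glucocorticoid carrier Serpina6, the plasminogen activator inhibitor Serpinb2, the heparin cofactor Serpind1 and the plasmin inhibitor Serpinf2. The liver markers Alb and Apoa1 were well above background on neither array, and Ttr was at -4.31 in the array labelled Nr4a-TKO, against -4.10 in wild-type.

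Of the 26 measured genes, Serpinf1 was past 2-fold in the higher direction (1 gene), Serpina3g and Serpine2 in the lower direction (2 genes), and 23 lay between. Among all 23493 measured gene names the shares past 2-fold were 3.15% higher and 3.06% lower, or 6.22% in either direction. The serpin median was -0.07, a sign that turned with normexp background correction (0.014), beside 0.08 over all measured genes. Of the 26, 18 differed by under 0.5 on the log2 scale. All 3 genes past 2-fold lay among the 19 serpins whose mean signal was below the median of all measured genes. In that dimmer set 7.75% of all genes passed 2-fold, against 4.69% in the brighter set, where 7 serpins lay and 0 passed. With the cut at the median of all measured probes instead, 10 serpins lay at or above it. Of these, 1 was past 2-fold higher and 1 lower, beside 5.31% of all genes kept by that cut.

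**Figure D2:**
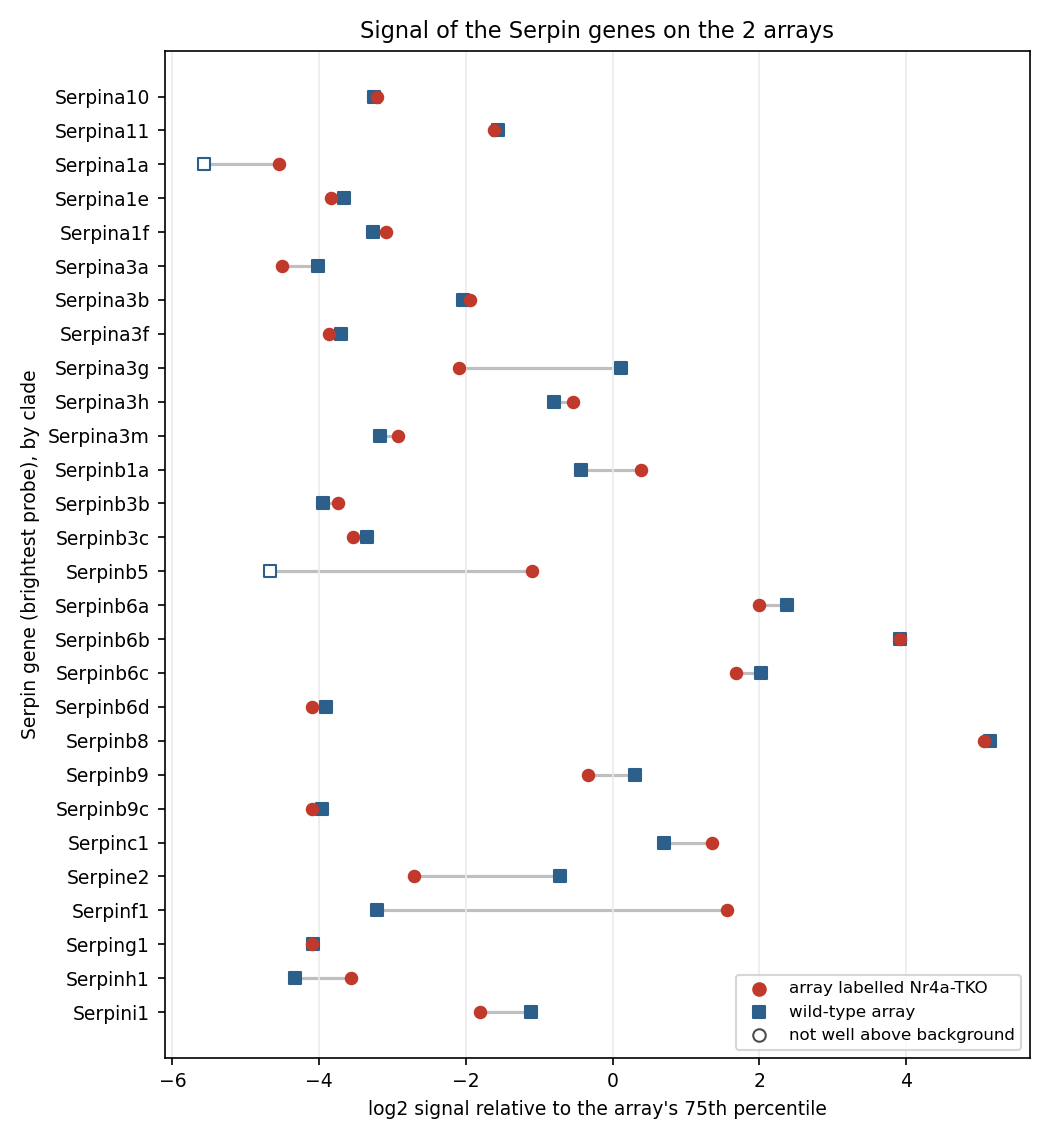
Log2 signal relative to the array's 75th percentile for the 28 serpin genes whose brightest probe was well above background on at least 1 array, leaving out Serpina3i. Circles are the array labelled Nr4a-TKO, squares are wild-type, and open symbols are not well above background. Long bars mark Serpinf1, Serpinb5, Serpina3g and Serpine2. Signals of different probes have no common scale, so only the 2 symbols of a row can be compared.

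Clade f holds Serpinf1, a secreted factor known for limiting blood vessel growth and for binding the lipase Pnpla2. Its brighter probe had a processed signal of 2215 on the array labelled Nr4a-TKO, against 89.7 on the wild-type array. Its log2 signals were 1.56 in the array labelled Nr4a-TKO and -3.21 in wild-type, a difference of 4.77 or 27.3-fold. The second probe was at -1.92 in the array labelled Nr4a-TKO, against -4.09 in wild-type, a 4.51-fold difference. Both probes were higher, but their differences lay 2.60 apart on the log2 scale. Over the 6748 genes with several measured probes the median gap was 0.25 and the 95th percentile 1.16. With normexp background correction, which adds an offset and narrows the differences of dim probes, the 2 probes gave 14.8-fold and 2.33-fold. Pnpla2 was at 3.39 in the array labelled Nr4a-TKO, against 3.57 in wild-type.

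In clade e, Serpine2 (protease nexin-1), a secreted inhibitor of thrombin and of the plasminogen activators Plau and Plat, had a processed signal of 116 in the array labelled Nr4a-TKO, against 505 in wild-type. Its log2 signals were -2.70 in the array labelled Nr4a-TKO and -0.72 in wild-type, a 3.95-fold lower value, or 2.68-fold with normexp. It had 1 probe. Of its targets, Plau was well above background on neither array. Plat passed only on the array labelled Nr4a-TKO, with a bound of at least 1.83-fold higher (1.33-fold with normexp). The activator receptor Plaur was at 1.59 in the array labelled Nr4a-TKO, against 2.29 in wild-type.

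Serpine2, Serpinf1 and Serpinh1 are also expressed by platelets or connective tissue cells, so markers of these were read beside them. Of 5 stromal markers, Pdgfra, Pdgfrb and Dcn were well above background on neither array, and Col1a2 on both (-3.83 in the array labelled Nr4a-TKO, -3.64 in wild-type). Col1a1 passed only on the array labelled Nr4a-TKO, at least 2.16-fold higher (1.51-fold with normexp). The log2 of the summed signal of these 5 was -2.56 in the array labelled Nr4a-TKO and -2.99 in wild-type. Of 3 platelet markers, Itga2b passed that call on both (-3.04 in the array labelled Nr4a-TKO, -3.10 in wild-type) and Pf4 and Ppbp on neither array. The log2 of their summed signal was -2.83 in the array labelled Nr4a-TKO and -2.91 in wild-type.

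In clade a, 1 of 10 measured genes was past 2-fold, beside 6.22% of all measured genes in either direction. The 1 gene was Serpina3g, which encodes an intracellular inhibitor of cysteine cathepsins in mouse lymphocytes and macrophages. Its processed signal was 177 in the array labelled Nr4a-TKO, against 903 in wild-type. The log2 signals were -2.09 in the array labelled Nr4a-TKO and 0.12 in wild-type, which is 4.62-fold lower, or 3.58-fold with normexp. Among cathepsins, Ctsb was at 5.14 in the array labelled Nr4a-TKO, against 4.58 in wild-type, and Ctsl at 1.16, against 0.94 in wild-type. Ctss was at 4.32 in the array labelled Nr4a-TKO, against 4.63 in wild-type, Ctsk at -2.72, against -2.60 in wild-type, and Ctsh was well above background on neither array.

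The other 9 measured clade a genes lay between -0.49 (Serpina3a) and 0.26 (Serpina3h). They include Serpina10, an inhibitor of coagulation factor Xa, at 0.04, and 2 genes of the alpha-1-antitrypsin group, Serpina1e at -0.18 and Serpina1f at 0.17. Of the other Serpina3 genes on chromosome 12, Serpina3f differed by -0.17, Serpina3b by 0.09 and Serpina3m by 0.25, each under 2-fold. The signs of Serpina10, Serpina11, Serpina1f, Serpina3b, Serpina3f, Serpina3h and Serpina3m turned in at least 1 of 8 settings. These changed background correction, scaling or source, or took the mean over probes. Serpina11 turned only with that mean. Serpina1a passed only on the array labelled Nr4a-TKO, with a bound of at least 1.26-fold higher. Serpina3i had 1 probe that passed only on the array labelled Nr4a-TKO and another that passed only in wild-type, with differences of 0.82 and -0.07, so no gene value is given.

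**Figure D3:**
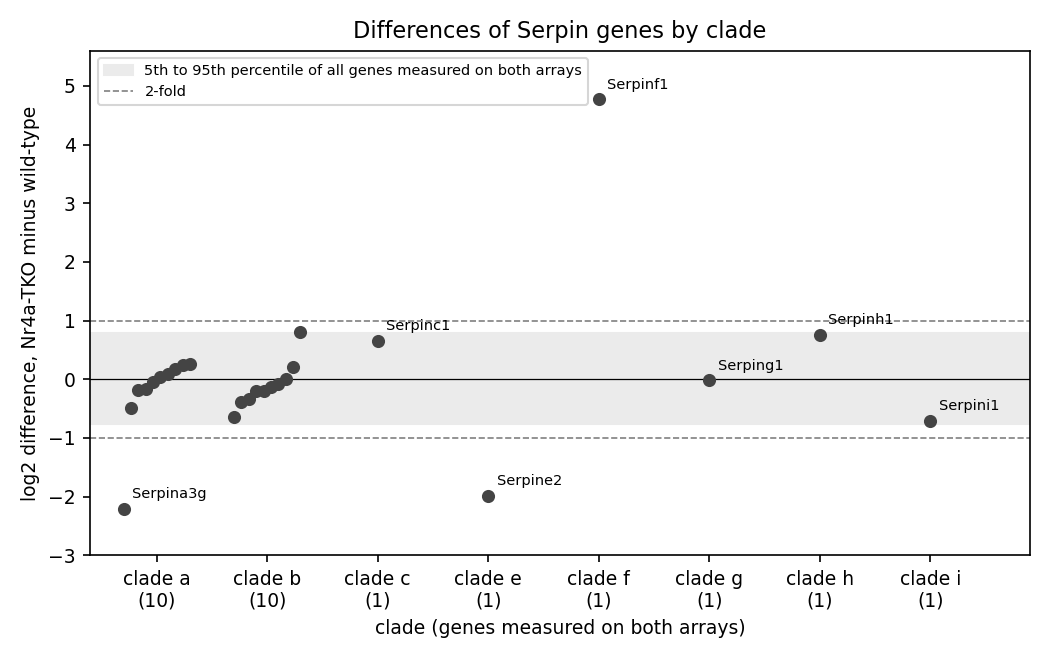
Log2 difference (array labelled Nr4a-TKO minus wild-type, vertical axis) of the 26 measured serpin genes by clade. The shaded band is the 5th to 95th percentile of all measured genes and the dashed lines mark 2-fold. The 10 clade b genes all lie within 2-fold, and the genes outside it are Serpina3g, Serpine2 and Serpinf1. Over all measured genes 6.22% lie outside 2-fold.

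In clade b, 0 of 10 measured genes passed 2-fold, beside 6.22% of all measured genes in either direction. The clade b range was -0.64 to 0.81 and the median -0.17, beside a median of 0.08 over all measured genes. Clade b genes lie on chromosome 1 (12 genes, 3 measured) and chromosome 13 (15 genes, 7 measured). The median was -0.08 on chromosome 1 and -0.19 on chromosome 13. Serpinb9, which inhibits granzyme B and shields cytotoxic lymphocytes from their own granules, had a processed signal of 596 in the array labelled Nr4a-TKO, against 1029 in wild-type. Its log2 signals were -0.34 in the array labelled Nr4a-TKO and 0.31 in wild-type, a difference of -0.64. Gzmb, the granzyme it inhibits, was at -1.92 in the array labelled Nr4a-TKO, against 0.57 in wild-type, 5.61-fold lower. Serpinb1a, an inhibitor of the neutrophil proteases elastase, cathepsin G and proteinase 3, was at 0.38 in the array labelled Nr4a-TKO, against -0.43 in wild-type, a difference of 0.81. Serpinb8, known as an inhibitor of furin in human, was at 5.06 in the array labelled Nr4a-TKO, against 5.15 in wild-type. Its 1 probe is mostly a repeat of the bases g and t, which transcripts of other genes can also hold. The Serpinb8 value is therefore uncertain as that of 1 gene. Furin was at 4.34 in the array labelled Nr4a-TKO, against 3.38 in wild-type.

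The Serpinb6 group is the mouse expansion of a single human inhibitor of cathepsin G. Serpinb6b was at 3.91 on both arrays. Serpinb6a was at 2.002 in the array labelled Nr4a-TKO, against 2.38 in wild-type, a difference of -0.38. The 2 probes of Serpinb6c gave -0.34 and -0.38. These 2 share a run of 43 bases, and both resemble the Serpinb6a probe. The dimmer one, which is the closer, is set beside the Serpinb6a probe with the mismatched bases in capitals.
Serpinb6a, chr13:34009796-34009855, minus strand: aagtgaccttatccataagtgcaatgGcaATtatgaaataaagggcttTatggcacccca
Serpinb6c, chr13:33971686-33971745, minus strand: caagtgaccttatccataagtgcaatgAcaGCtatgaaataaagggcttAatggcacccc
These probes match at 55 of 59 aligned bases and differ at 4. The Serpinb6a and Serpinb6c values are therefore uncertain as separate genes, since a probe of this kind can bind the transcripts of both.

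Serpinb5 passed only on the array labelled Nr4a-TKO. Its processed signal was 350 in the array labelled Nr4a-TKO, against 32.7 in wild-type, and its log2 signals were -1.10 in the array labelled Nr4a-TKO and -4.67 in wild-type. As the wild-type value was not well above background, only a bound of at least 11.8-fold higher is given. That bound holds for the main processing and equals the ratio of the measured signals, which came to 3.95-fold with normexp. Serpinb5 is the epithelial gene maspin, and 1 probe represents it.

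Among other pairs of similar probes, those of Serpina3h and Serpina3i match at 51 of 57 aligned bases, and those of Serpina1a and Serpina1c at 50 of 51. Those of Serpinb3c, measured on both arrays, and Serpinb3a, well above background on neither, match at 43 of 48. Serpina3h was measured on both arrays, at -0.54 in the array labelled Nr4a-TKO and -0.80 in wild-type, a difference of 0.26, while the closest Serpina3i probe differed by -0.07. The probes of Serpina1a and Serpina1c in that pair were on neither array well above background.
Serpina3h, chr12:105491733-105491792, plus strand: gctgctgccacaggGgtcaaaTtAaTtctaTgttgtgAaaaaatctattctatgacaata
Serpina3i, chr12:105506705-105506764, plus strand: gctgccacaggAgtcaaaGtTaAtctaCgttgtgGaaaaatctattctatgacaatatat
Capitals again mark mismatched bases, of which there are 6.

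Clades c, g, h and i had 1 measured gene each, with a difference under 2-fold, and clade d, whose 1 gene is Serpind1, had 0. Serpinc1 (antithrombin), the plasma inhibitor of thrombin and factor Xa, was at 1.36 in the array labelled Nr4a-TKO, against 0.70 in wild-type. Its value rests on 1 probe. Serpinh1 was at -3.57 in the array labelled Nr4a-TKO, against -4.33 in wild-type, a difference of 0.76 that came to 0.33 with normexp. Serpini1 (neuroserpin), an inhibitor of Plat, was at -1.81 in the array labelled Nr4a-TKO, against -1.11 in wild-type, and its second probe differed by -0.32. Serping1, which blocks the complement proteases C1r and C1s, differed by -0.01 at the measured probe, a sign that turned with other settings.

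**Figure D4:**
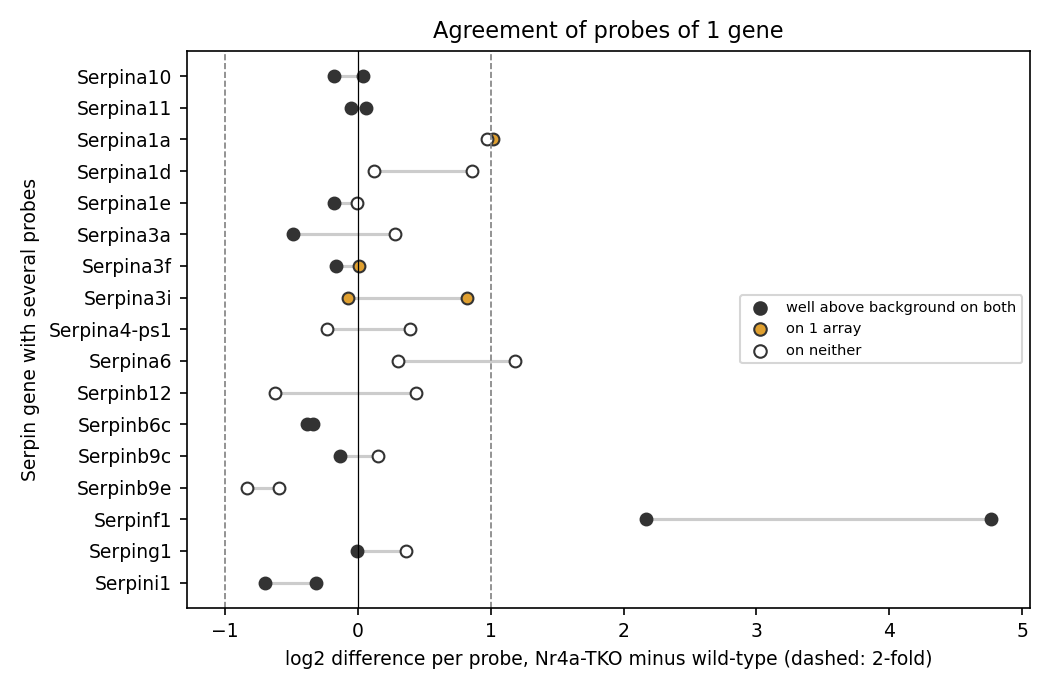
Log2 difference of each probe (horizontal axis) for the 17 serpin genes with several probes. Filled points were well above background on both arrays, orange on 1 and open on neither. The Serpinf1 probes lie at 2.17 and 4.77, and the probes of Serpina10, Serpina11, Serpinb6c and Serpini1 that were measured on both arrays are at most 0.38 apart.

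Among 25 measured proteases of a list of 43 that serpins inhibit or that belong to the same cascades, 5 were past 2-fold in the higher direction, 5 in the lower direction and 15 between, with a median of 0.08. Over all measured genes 3.15% were past 2-fold in the higher direction and 3.06% in the lower. The higher ones were Masp2 of the complement lectin pathway (5.79-fold), Casp1 (3.97-fold), Gzma (3.44-fold), the complement protease C1s1 (2.04-fold) and coagulation factor F7 (2.03-fold). The lower ones were the granule proteases Ctsg (5.88-fold), Gzmb (5.61-fold), Tpsb2 (3.75-fold) and Gzmc (2.75-fold), and the membrane protease Hpn (5.85-fold). With normexp C1s1, F7 and Gzmc came under 2-fold, while Masp2 was at 3.51-fold, Gzma at 2.19-fold, Ctsg at 2.70-fold and Hpn at 3.22-fold. Furin, 1.95-fold higher in the main processing, came to 2.02-fold higher with normexp. A further 3 listed proteases passed only on the array labelled Nr4a-TKO and 5 only in wild-type. Of these, in the main processing, C1ra was at least 2.89-fold higher. F12, Mcpt8 and Klkb1 were at least 4.56-fold, at least 2.45-fold and at least 2.25-fold lower, while the bounds of the other 4 were under 2-fold. With normexp the measured signals gave 1.62-fold for C1ra, 2.09-fold for F12, 1.41-fold for Mcpt8 and 1.31-fold for Klkb1. The brightest Masp1 probe passed only on the array labelled Nr4a-TKO, at least 20.0-fold higher (7.25-fold with normexp). However, a dimmer probe passed on both arrays, so no gene value is given. Ctsg and Tpsb2 are made by granulocytes and mast cells, whose markers were also lower in part. Mpo was 7.76-fold lower (3.04-fold with normexp), and Elane differed by -0.07. S100a8 and S100a9 were at least 2.50-fold and at least 2.89-fold lower (1.80-fold and 1.89-fold with normexp). Cpa3 was on neither array well above background. The log2 sum of these 5 markers was 0.02 in the array labelled Nr4a-TKO and 0.62 in wild-type. Their part in the protease values was not tested.

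Of 15 measured serpin receptors and cofactors, 3 were past 2-fold in the higher direction, 0 in the lower and 12 between, beside the same 3.15% and 3.06% over all genes. They were F3, the tissue factor that starts coagulation (10.3-fold), Vldlr, which takes up serpin and protease complexes (4.32-fold), and Sdc1, a heparan sulfate proteoglycan (3.17-fold). With normexp F3 was at 6.44-fold and Sdc1 at 2.01-fold. The main clearance receptor Lrp1 was at -2.52 in the array labelled Nr4a-TKO, against -3.18 in wild-type. Of 9 measured genes for collagens and their modifying enzymes, whose products Serpinh1 folds or works beside, Plod2 (2.91-fold) and Col18a1 (2.32-fold) were higher, 0 were past 2-fold in the lower direction and 7 lay between, where 3.15% of all genes passed in the higher direction. Col1a1 and Col5a1 passed only on the array labelled Nr4a-TKO, at least 2.16-fold and at least 3.29-fold higher. With normexp Col1a1 came to 1.51-fold, Col5a1 to 1.77-fold and Col18a1 to 1.51-fold.

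The promoters of the serpins were searched for AAAGGTCA on both strands, the response element that Nr4a receptors bind as monomers. Windows from 250 bases before to 50 after the start were taken from RefSeq on GRCm38.p6. The table held 60 windows for 51 of the 61 genes. The motif stood in 2 windows (3.33%), both of Serpinb6d and overlapping at 1 site, beside 1.51% of all 32851 windows. Serpinf1, Serpine2, Serpina3g and Serpinb5 had windows without these letters, which says nothing of the factor's binding. The Serpinb6d site is shown with 26 bases on each side and the motif, on its reverse strand, in capitals.
Serpinb6d, chr13:33661269-33661328, GRCm38.p6, plus strand: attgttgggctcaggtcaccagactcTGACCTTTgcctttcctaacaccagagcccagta
Serpinb6d itself was at -4.09 in the array labelled Nr4a-TKO, against -3.90 in wild-type, a difference of -0.19.

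Technical spread could be read directly for 1 serpin. Serpinb3c had 10 usable spots on the array labelled Nr4a-TKO, at -3.53 ± 0.19 (SD), and 9 in wild-type, at -3.34 ± 0.15 (SD), a difference of -0.19. The scanner's error model gave 1 SD of a difference between 0.20 and 0.39 for the 26 measured genes, and 13 of them differed by less than that. Neither measure holds any variation between mice or preparations.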

How the data were processed

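Spot intensities came from the authors' deposited scanner output, made with Agilent Feature Extraction 10.10.1.1 on design 028005, annotated on mm9, per the file headers. Both arrays lay on 1 slide with 1 scan time. A second deposited table held log2 values of the same probes, scaled by a rule the sources do not state. From the scanner files, control spots and outlier spots (117 on the array labelled Nr4a-TKO, 156 in wild-type) were left out, log2 processed signals were averaged per probe, and each array's 75th percentile was subtracted. Of the family, 1 probe is not reported here and is in none of the family's counts. Accessions of 74 of the 78 serpin probes matched RefSeq names of GRCm38.p6, and the other 4 kept the file's name. For a probe well above background on 1 array, the bound set its bright value against the higher of the lowest passing signal and the probe's own signal on the other array. Such a bound holds for the main processing only. Any serpin well above background could be named, and listed genes when past 2-fold or when a known target. A few others were chosen after their values were seen. Members and lists were chosen with earlier results of these data known. Alternatives were normexp (offset 50), other scalings, filters, detection calls and thresholds. The counting step was tested on simulated data. Software was R 4.3.3 (limma 3.58.1) and Python 3.11.15 (matplotlib 3.10.9, numpy 2.4.6, pandas 2.3.3, scipy 1.17.1).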

Additional observations from a re-analysis of the deposited data

How the results depend on the processing

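With 1 array per genotype no replicate could be left out and the slide could not be a block. No paired analysis was possible because each genotype has 1 array. The 1 higher and 2 lower serpins stayed at 1 and 2 under all 7 changes of background correction, scaling or source and with the mean over probes. They became 3 and 2 without the filter on dim probes or with the looser call gIsPosAndSignif, 1 and 1 with the stricter filter, and 4 and 4 at 1.5-fold. The stricter filter kept measured genes with a mean signal at or above the median of all measured probes, 10 serpins among them. Over all genes the share past the threshold was 10.9% without the filter, 9.50% with the looser call, 5.31% with the stricter filter and 15.7% at 1.5-fold, against 6.22%. The looser call raised passing probes to 57 in the array labelled Nr4a-TKO and 62 in wild-type, and measured genes to 43. The serpin median was 0.014 with normexp, -0.34 on spike-ins, -0.21 on housekeeping genes and 0.090 without the filter. The median over all genes moved by -0.27 on spike-ins and by -0.14 on housekeeping genes, and the share of higher among all calls was 26.4% and 38.4%, against 50.7%. Of 26 genes, 16 kept their direction in all 8 settings, and those that turned were Serpina10, Serpina11, Serpina1f, Serpina3b, Serpina3f, Serpina3h, Serpina3m, Serpinb3b, Serpinb9c and Serping1. Higher protease targets numbered 3 with the percentile of passing probes, with spike-in or housekeeping centring and at 3-fold, and 1 with the stricter filter. The higher ones numbered 7 without the filter, 6 with the looser call and 7 at 1.5-fold, against 5. Lower ones numbered 10 without the filter or with the looser call, and 2 with the stricter filter, against 5. The proteases counted were 42 without the filter, 40 with the looser call and 11 with the stricter filter, against 25. The counts over all genes were 475 higher and 456 lower with normexp, against 741 and 720. Dim signals limit most serpins.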
